A study of Homo sapiens with 12 samples.

Results

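The nuclear genes for the subunits of the respiratory chain and of the ATP synthase were followed in MV4-11 cells, a line of acute myeloid leukemia cells, after 24 h of drug treatment. They were chosen by symbol alone, and 79 of the 43876 gene rows met the rule: 36 genes of complex I, 4 of complex II, 9 of complex III, 11 of complex IV and 19 of complex V. NDUFA4 is named for complex I but belongs to complex IV, and it was placed there.

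RNA was sequenced in 12 libraries, 3 for each condition. The cells received DMSO, the solvent control, or 20 nM mitoxantrone (Mito-Lipo), or 25 nM gilteritinib (Gilteritinib), or 20 nM mitoxantrone with 20 nM gilteritinib (Com). The labels call the first drug mitoxantrone, and the study's methods describe a liposomal form of it. Mitoxantrone is a topoisomerase II inhibitor, and gilteritinib inhibits FLT3, a receptor kinase that MV4-11 cells carry in a mutated, active form. All conditions used this 1 cell line, labelled wild-type, so no result extends to other cells. The labels do not say whether the libraries of a condition came from separate cultures, so the tests measure the spread between libraries, which may be technical.

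Respiratory complexes I, III and IV pass electrons from NADH to oxygen and pump protons out of the mitochondrial matrix, complex II feeds electrons in from succinate, and complex V lets the protons back in and makes ATP. Complexes I, III, IV and V are built from nuclear gene products together with a few proteins made inside the mitochondrion, while complex II is nuclear throughout. The nuclear genes are scattered over the chromosomes, and nuclear respiratory factor 1 (NRF1), GABP, an ETS family factor, YY1 and SP factors are the best known regulators of their promoters.

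The promoter windows of 4 of the members named in the comparisons below are shown for that reason. They are the 100 bases before the RefSeq start in GRCh38.p14. Capitals mark every match to 1 of 4 motifs on either strand. The motifs were GCGCANGCG (NRF1), CCGGAAG (ETS), AAGATGGC (YY1) and GGGCGGGG (SP). COX5A lies on chr15:74938074-74938173, UQCRFS1 on chr19:29213152-29213251, NDUFB7 on chr19:14572067-14572166, all 3 on the minus strand, and COX8A on chr11:63974520-63974619 on the plus strand.
COX5A: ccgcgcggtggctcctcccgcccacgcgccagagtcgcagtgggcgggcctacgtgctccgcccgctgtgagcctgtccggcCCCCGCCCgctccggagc
UQCRFS1: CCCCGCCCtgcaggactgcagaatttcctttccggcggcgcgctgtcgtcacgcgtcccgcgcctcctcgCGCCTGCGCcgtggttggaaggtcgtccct
NDUFB7: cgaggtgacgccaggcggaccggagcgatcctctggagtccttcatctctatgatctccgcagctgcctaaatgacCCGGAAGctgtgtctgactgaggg
COX8A: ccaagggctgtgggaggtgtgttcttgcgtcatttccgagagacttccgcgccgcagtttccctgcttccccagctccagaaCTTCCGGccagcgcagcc

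The COX5A window held an SP match, UQCRFS1 an SP and an NRF1 match, and NDUFB7 and COX8A an ETS match each. RefSeq promoters, here from 250 bases before to 50 after the start, were at hand for 64 members. The NRF1 letters occurred in 22 of the 64 (34.4%), against 9.02% of all 27305 genes with a promoter. ETS letters occurred in 21 (32.8%, against 12.2%), YY1 letters in 12 (18.8%, against 3.52%) and SP letters in 17 (26.6%, against 26.1%). In all, 43 of the 64 held an NRF1, ETS or YY1 match, and 13 held none of the 4 motifs. These are matches of letters, not sites shown to be bound. The median difference between Mito-Lipo and DMSO on the log2(FPKM + 1) scale was -0.08 over the 21 tested members with the NRF1 letters and -0.07 over the 39 without them.

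The identity of the cells was checked with 10 markers of the line, of which 9 had at least 1 FPKM (fragments scaled by gene length and library depth) in every library. FLT3 ranged from 132 to 171 FPKM and LYZ, lysozyme, from 490 to 1334, while HLA-DRA did not exceed 0.164. Of 11 markers of other cells, 9 stayed under 1 FPKM in all libraries. Among those that did not, HBB, beta globin, ranged from 0 to 2.85. The depth that the values imply was 31725014 to 41330653 fragments per library.

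The subunit genes were expressed far above the typical gene. The median of their mean levels over the 12 libraries was 48.1 FPKM, against 5.09 for all 18574 genes tested, which had at least 1 FPKM in at least 3 libraries. At least 100 FPKM was reached by 16 members, 51 lay between 10 and 100, 7 between 1 and 10, and 5 lay under 1. ATP5F1B, the catalytic beta subunit of the ATP synthase, had the highest level at 499 FPKM. It was followed by COX8A with 299, UQCRH, the hinge protein of complex III, with 227, COX6C with 206 and COX6B1 with 201, all of complexes III and IV.

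The complexes differed in their typical level. The median member had 113 FPKM in complex IV, 76.8 in complex II, 59.3 in complex III, 52.3 in complex V and 23.6 in complex I. Members of 1 complex did not share a level. Complex I ran from NDUFB7, an accessory subunit of the membrane arm, at 112 FPKM down to NDUFA6 at 0.0332, and complex III from UQCRH down to UQCRB at 13.9. Complex IV ran from COX8A down to COX7B at 48.9. Complex II ran from SDHD, a membrane anchor, at 80.5 to SDHA, the FAD-bearing subunit, at 21.5.

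**Figure D1:**
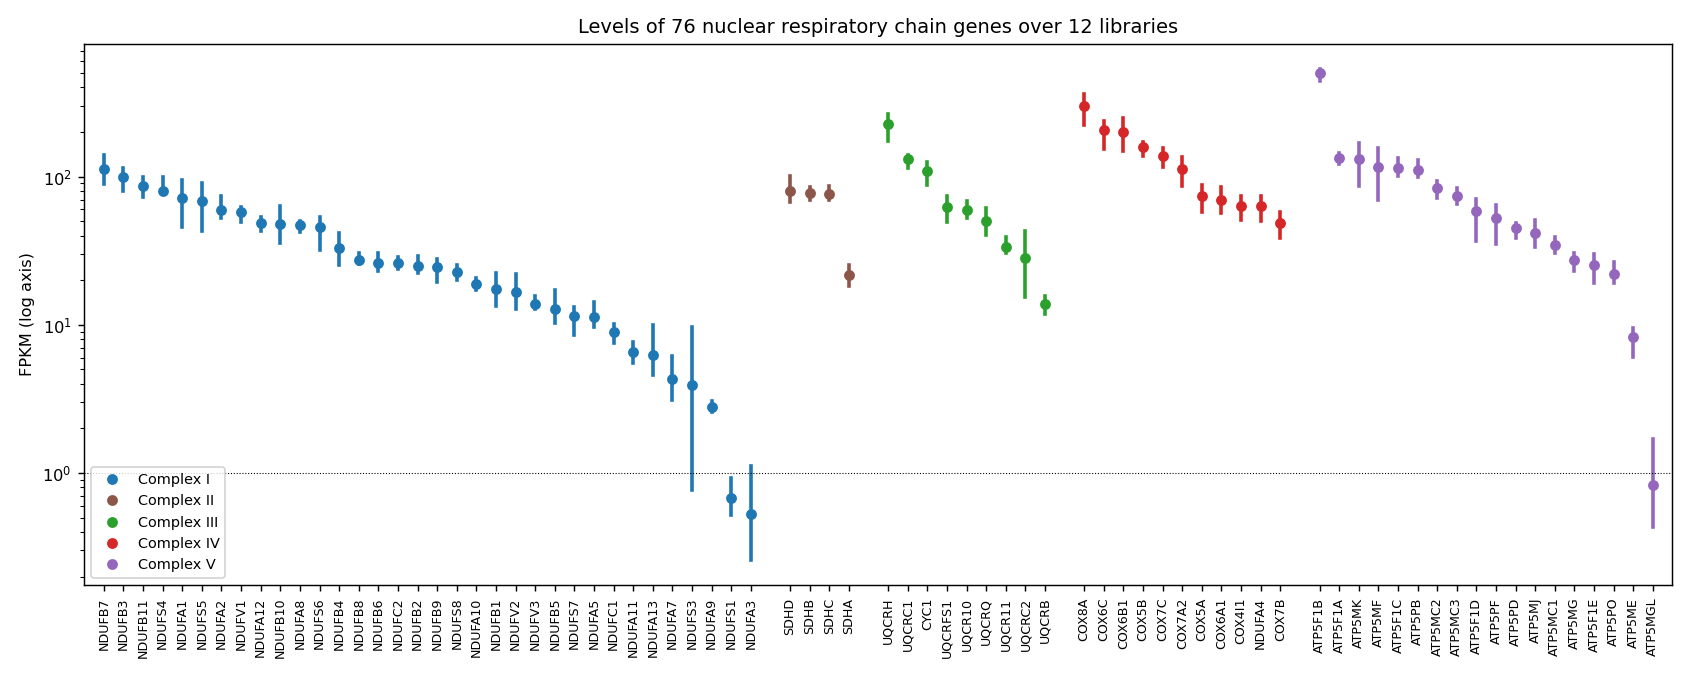
FPKM of 76 members on a log axis, by complex and in order of level: points are means and bars run from the lowest to the highest of the 12 libraries. NDUFA6 and ATP5IF1, listed near 0, and 1 other member are left out, and the dotted line is at 1 FPKM. Most members sit between 10 and 100 FPKM, ATP5F1B is highest at 499, and NDUFS3 has the longest bar.

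The catalytic subunits were compared first by their means in the 4 conditions. NDUFV1, which takes the electrons from NADH, had 56.9 ± 6.67 FPKM in DMSO, 55.7 ± 3.09 in Mito-Lipo, 58.1 ± 3.63 in Gilteritinib and 58.4 ± 2.34 in Com (mean ± SD, n = 3 in each condition, here and below). NDUFS7, with the last iron-sulfur cluster, had 11.7 ± 0.350, 10.7 ± 2.05, 11.3 ± 1.02 and 12.2 ± 1.12 in the same order. Neither gene had an unadjusted p under 0.05 in any comparison of conditions.

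SDHA had 21.9 ± 1.24, 21.6 ± 3.44, 21.4 ± 0.679 and 21.2 ± 0.881 FPKM in DMSO, Mito-Lipo, Gilteritinib and Com, and SDHB, the iron-sulfur subunit, 77.3 ± 1.67, 73.4 ± 3.29, 81.4 ± 2.64 and 75.8 ± 1.995. UQCRC1, a core protein of complex III, had 136 ± 6.29, 123 ± 9.47, 130 ± 8.87 and 133 ± 4.01. COX5B, a zinc-binding subunit, had 163 ± 6.89, 147 ± 12.2, 165 ± 7.52 and 159 ± 9.31. Mito-Lipo had the lowest mean in SDHB, UQCRC1 and COX5B, and none of these differences from DMSO passed the test. ATP5F1A, the alpha subunit, had 134 ± 3.33, 126 ± 3.65, 138 ± 5.89 and 136 ± 5.64, and ATP5F1B had 495 ± 47.9, 480 ± 25.3, 510 ± 27.0 and 511 ± 23.4.

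A few members stood very low. NDUFS1, the largest iron-sulfur subunit of complex I (chr2:206114817-206159603, GRCh38), had 0.52 to 0.93 FPKM, which came from 211 to 380 fragments over a length of 11660 nucleotides. ATP5IF1, the inhibitor of the ATP synthase, was listed at 0 in 10 libraries and at 0.0267 and 0.0153 FPKM in Mito-Lipo replicate 1 and Com replicate 1. NDUFA6, an accessory subunit of complex I, was listed at 0 to 0.127 FPKM. SURF1, an assembly factor of complex IV and no member, was likewise listed at 0 to 0.0268 FPKM. A value at or near 0 in such a table can also come from the upstream quantification, which was not tested. These genes are therefore described as listed at or near 0 and not as silent. NDUFA3, another accessory subunit, had 0.531 on average, from 8 to 37 fragments. The 4 members NDUFS1, NDUFA3, NDUFA6 and ATP5IF1 did not pass the filter on low values, and 75 members were tested. ATP5MGL, a relative of subunit g, had 0.834 FPKM on average and passed with at least 1 FPKM in 3 libraries.

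The low values stood beside properties of the annotation. Of the 12 members under 10 FPKM, 8 shared over 10% of their exon bases with another gene in GENCODE release 29, against 23 of the 67 members at 10 FPKM or more. Over 20% was shared by 4 of the 12 and 12 of the 67. The gene length behind the FPKM values was below the exon length of that release for 72 of 78 members. The shares therefore need not hold for the gene models behind the values. ATP5ME, subunit e, shared 61.6% with MYL5 and NDUFS3 19.6% with PTPMT1, whereas NDUFA6 shared 1.8% with any gene and ATP5IF1 none. ATP5ME and MYL5 lie on opposite strands, whose reads cannot be told apart without strand, and the kit named in the labels does not keep it. NDUFS3 and PTPMT1 lie on the same strand. Processed copies were a second such property: 39 members had 118 rows of their own pseudogenes in the table. The 4 rows of NDUFA3 copies summed to 11.9 FPKM, 22.4 times the level of NDUFA3 itself, and the 3 SDHA copies to 25.5 FPKM, 1.18 times that of SDHA. For 10 members the copies reached at least 10% of the gene's own level, among them COX6C, NDUFB1 and NDUFA5, so the levels of these members are uncertain. The part of overlap and copies in the low values was not tested.

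The members varied little between libraries. The highest library was under 1.5 times the lowest for 45 of the 75 tested members, and at least 2 times it for 7. The SD between libraries of 1 condition had a median of 0.13 on the log2 scale among the 67 members of at least 10 FPKM, against 0.14 for all 6252 genes at that level. NDUFS3, a core subunit of complex I (chr11:47565336-47584562), varied most, with 1.75, 5.56 and 6.24 FPKM in DMSO, 2.92, 3.52 and 4.83 in Mito-Lipo, 2.42, 0.766 and 4.72 in Gilteritinib and 1.39, 9.67 and 3.02 in Com, in order of replicate number. The conditions overlapped throughout, and the values rest on 94 to 1100 fragments. UQCRC2, the other core protein of complex III, ran from 15.3 to 42.7 FPKM, on 1268 to 3243 fragments.

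The first question was whether mitoxantrone alone moved these genes. In limma, 0 members passed an adjusted p under 0.05 between Mito-Lipo and DMSO, and neither did any of the 18574 genes (0%). A second test, limma's voom on fragments recovered from the FPKM values, also called 0 members here and in the other comparisons of conditions. The median member was lower in Mito-Lipo by 0.07, with 59 of 75 members lower, while the median of all genes was 0.03 higher (log2(FPKM + 1), as are all differences below). At an unadjusted p under 0.05, 6 members were lower (8%) and 0 higher, against 2.94% of all genes lower and 4.95% higher. In bulk RNA, fewer cells of a kind and less RNA per cell cannot be told apart. Among all genes of at least 10 FPKM 6.51% were lower, and among the 67 members at that level 8.96%. The 3 Mito-Lipo libraries lay below all 3 DMSO libraries for 9 members (12%), against 5.90% of all genes, and above them for 1 member (1.33%), NDUFV3, against 7.68%. With median-ratio scaling 5 members were lower at an unadjusted p under 0.05, and with quantile normalization 3. The median of all genes was then 0.009 and -0.007. All-gene shares under these scalings are not given.

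COX5A, a matrix-side subunit of complex IV, had the smallest p (chr15:74919791-74938168, minus strand). Its FPKM was 75.3, 88.2 and 84.9 in DMSO replicates 1, 2 and 3 and 72.2, 58.0 and 59.8 in Mito-Lipo replicates 1, 2 and 3. The groups did not overlap, and Mito-Lipo replicate 1 lay next to DMSO replicate 1. The difference was -0.38 ± 0.10 (SE), with an adjusted p of 0.474.

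CYC1, cytochrome c1, and UQCRFS1, the Rieske iron-sulfur protein, carry the electrons through complex III. CYC1 had 111, 126 and 125 FPKM in DMSO and 109, 88.4 and 93.1 in Mito-Lipo, a difference of -0.32 ± 0.09 with an adjusted p of 0.477. UQCRFS1 had 67.4, 67.2 and 66.1 FPKM in DMSO and 63.4, 49.4 and 53.2 in Mito-Lipo, a difference of -0.28 ± 0.11 with an adjusted p of 0.566. For both genes the groups were apart and Mito-Lipo replicate 1 was the highest of its 3. ATP5F1D, the delta subunit of the central stalk, had 61.0, 66.6 and 70.8 FPKM in DMSO but 69.2, 41.9 and 36.5 in Mito-Lipo, so that its groups overlapped. The other members with an unadjusted p under 0.05 were NDUFB2 and ATP5PD, at -0.18 and -0.16.

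The members with the smallest p in the other direction were NDUFV3, NDUFA7 and NDUFA13, accessory subunits of complex I, at 0.12, 0.26 and 0.23 with adjusted p values of 0.761, 0.811 and 0.863. By complex, all 11 members of complex IV, 16 of 18 of complex V, 7 of 9 of complex III and 3 of 4 of complex II were lower in Mito-Lipo, and 22 of 33 of complex I. The medians were -0.12, -0.09, -0.06, -0.05 and -0.04 in the same order.

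**Figure D2:**
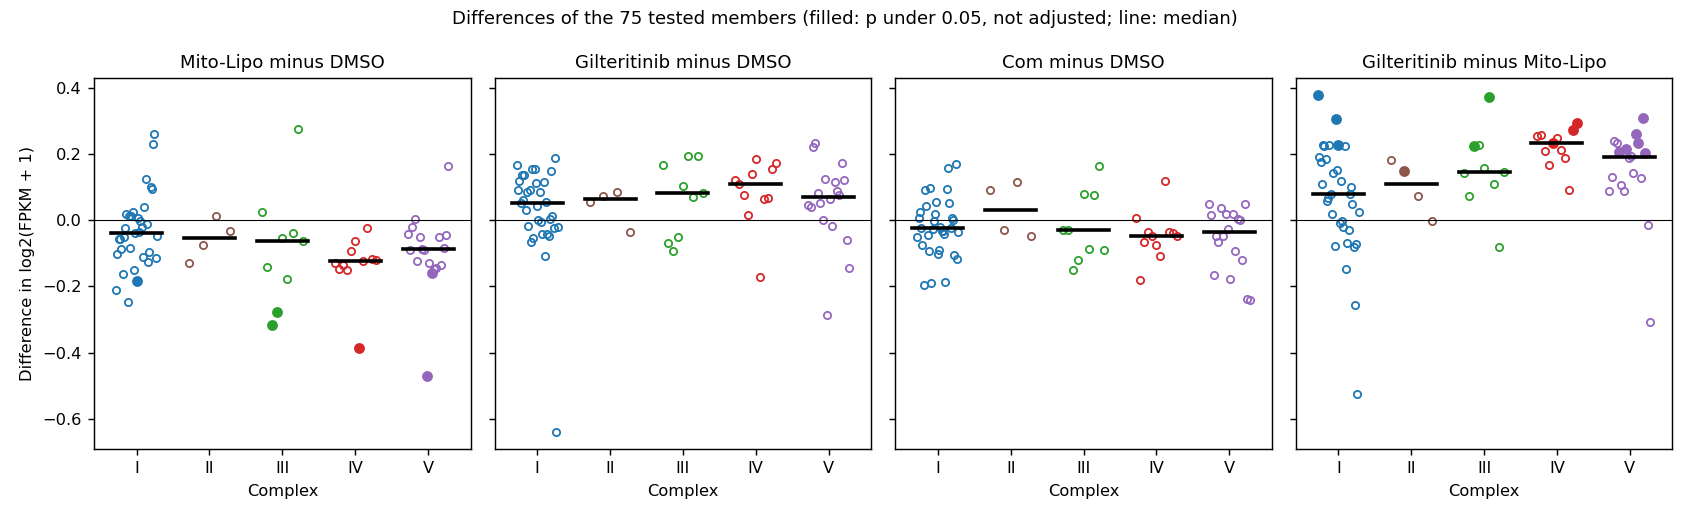
Difference in log2(FPKM + 1) of each of the 75 tested members in 4 comparisons, by complex: lines are medians, and filled points have an unadjusted p under 0.05. No point passed an adjusted p under 0.05. In Mito-Lipo minus DMSO the complex IV members all lie below 0, and in Gilteritinib minus Mito-Lipo they all lie above it.

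The second question concerned gilteritinib alone. Again 0 members and 0% of all genes passed the adjusted threshold, and 0 members had an unadjusted p under 0.05, where 0.565% of all genes were higher and 1.30% lower. The 3 comparisons with DMSO share its libraries. The median member was 0.07 higher in Gilteritinib than in DMSO, with 54 of 75 higher, and the median of all genes 0.03 lower. With median-ratio scaling, and also with quantile normalization, the median of all genes was 0.009. For 8 members (10.7%) the 3 Gilteritinib libraries lay above all DMSO libraries, against 2.18% of all genes, and for 0 below, against 4.40%. They were NDUFB6, SDHB, UQCRQ, COX7C, NDUFA4, COX7B, ATP5MC3 and ATP5F1E. With the replicate number as a block, ATP5MF and ATP5PO were higher at an unadjusted p under 0.05, against 1.26% of all genes, and 0 members passed the adjusted threshold.

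NDUFB6, a membrane arm subunit of complex I (chr9:32552999-32573184, minus strand), had the smallest p. Its FPKM was 27.4, 26.0 and 24.3 in DMSO and 30.6, 27.5 and 28.7 in Gilteritinib, a difference of 0.16 ± 0.08 with an adjusted p of 0.9999. ATP5MC3, of the proton-carrying c-ring, and NDUFC2 followed at 0.12 and 0.11. In the other direction COX5A, ATP5F1D and NDUFS3 had the smallest p, at -0.17, -0.29 and -0.64, and for each the Gilteritinib and DMSO libraries overlapped.

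With both drugs the members lay near the control. In Com minus DMSO 0 members passed the adjusted threshold, against 1 gene in all (0.00538%), and 0 had an unadjusted p under 0.05, against 0.829% of all genes higher and 0.840% lower. The median member was 0.03 lower, with 48 of 75 lower, and the median of all genes 0.01 lower. The smallest p belonged to SDHC, NDUFA8 and NDUFV3 among members with higher values, at 0.11, 0.10 and 0.10, and to CYC1, ATP5ME and COX6C among those with lower values, at -0.15, -0.24 and -0.18. The 3 Com libraries differed among themselves: the median member stood at -0.11, 0.07 and -0.02 against the DMSO mean in replicates 1, 2 and 3. Without Com replicate 1 the median difference was 0.03 in place of -0.03.

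The members' median difference was largest between the 2 single drugs. Between Gilteritinib and Mito-Lipo the median member was 0.14 higher in Gilteritinib, with 60 of 75 higher, while the median of all genes was 0.06 lower. No member and 0% of all genes passed the adjusted threshold. At an unadjusted p under 0.05, 15 members were higher (20.0%) and 0 lower, against 2.96% of all genes higher and 6.56% lower. Among genes of at least 10 FPKM the share was 7.36% higher, against 22.4% of the 67 members at that level. For 19 members (25.3%) all Gilteritinib libraries lay above all Mito-Lipo libraries, against 5.25% of all genes, and for 0 below, against 9.12%. With the replicate number as a block, 25 members had an unadjusted p under 0.05 and were higher, against 5.45% of all genes, and 0 passed the adjusted threshold. With voom and the block 1 member passed, NDUFB7, at 0.38 with an adjusted p of 0.0364, against 1.07% of all genes higher. With median-ratio scaling 21 members were higher at an unadjusted p under 0.05, and with quantile normalization 10. The median member was then 0.21 and 0.125 higher, and the median of all genes was -0.007 and 0.016. All-gene shares under these scalings are not given. The Mito-Lipo and Gilteritinib libraries are those of the comparisons above, so these counts are not independent of them.

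NDUFB6 had 22.9, 23.1 and 23.6 FPKM in Mito-Lipo against the Gilteritinib values above, a difference of 0.31 ± 0.08 with an adjusted p of 0.257. NDUFB7 (chr19:14566078-14572062, minus strand) had 108, 89.8 and 95.9 FPKM in Mito-Lipo and 139, 121 and 122 in Gilteritinib, a difference of 0.38 ± 0.11 with an adjusted p of 0.328. ATP5MC3 had 68.1, 65.8 and 73.4 FPKM in Mito-Lipo and 83.3, 76.5 and 80.9 in Gilteritinib, a difference of 0.21 ± 0.07 with an adjusted p of 0.342. In all 3 genes the groups were apart. The other members with an unadjusted p under 0.05 were NDUFB2 in complex I, SDHB in complex II, CYC1 and UQCRQ in complex III, COX7C, NDUFA4 and COX7B in complex IV, and ATP5F1C, ATP5MJ, ATP5MC1, ATP5F1E and ATP5PO in complex V. All 11 members of complex IV and 16 of 18 of complex V had the higher mean in Gilteritinib, with medians of 0.23 and 0.19. In the other direction ATP5MGL, NDUFA13 and NDUFB8 had the smallest p, at -0.31, -0.25 and -0.08, with overlapping groups.

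**Figure D3:**
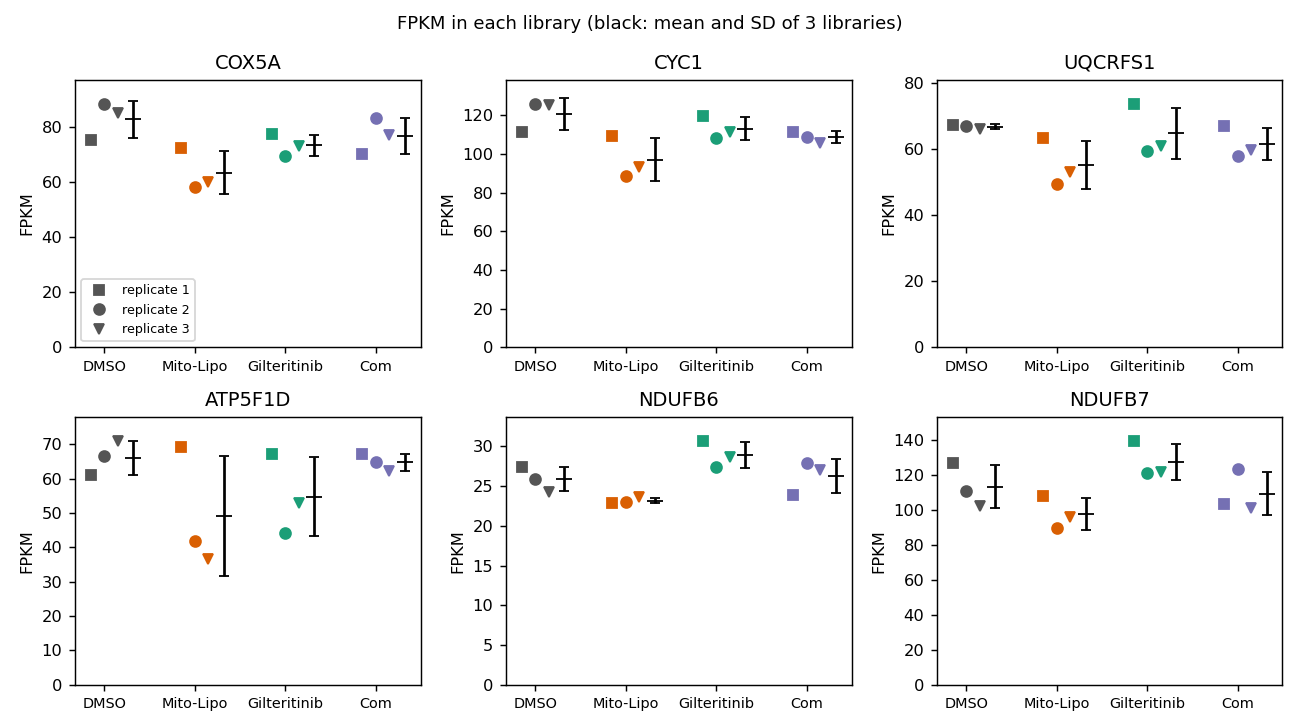
FPKM of 6 members in each library, by condition and replicate number, with the mean and SD of 3 libraries in black on an axis that starts at 0. In COX5A, CYC1, UQCRFS1 and ATP5F1D the Mito-Lipo replicate 1 lies above replicates 2 and 3, and in NDUFB6 and NDUFB7 all Gilteritinib libraries lie above all Mito-Lipo libraries.

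Com was also set against each single drug. Against Mito-Lipo, 0 members and 0% of all genes passed the adjusted threshold, and 3 members had an unadjusted p under 0.05 and were higher (4%), against 1.41% of all genes higher and 4.12% lower. They were COX5A at 0.28, ATP5PD at 0.18 and NDUFB6 at 0.17. COX5A had 70.0, 83.0 and 77.1 FPKM in Com, of which replicate 1 lay below Mito-Lipo replicate 1. All Com libraries lay above all Mito-Lipo libraries for 4 members (5.33%), NDUFB6, COX6A1, ATP5F1A and ATP5PD, against 3.22% of all genes. ATP5MGL, NDUFA13 and ATP5ME had the smallest p among members with lower values, at -0.41, -0.33 and -0.19. With the replicate block 9 members were higher at an unadjusted p under 0.05, against 3.60% of all genes, and 1 member, NDUFV2, was lower, against 8.58%. The median member was 0.06 higher in Com than in Mito-Lipo, 0.11 without Com replicate 1 and 0.01 without Com replicate 2. The median of all genes was 0.04 lower with all libraries. With median-ratio scaling it was -0.007, and with quantile normalization 0.011.

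Against Gilteritinib, the median member was 0.08 lower in Com, with 58 of 75 lower, and the median of all genes was 0.02 higher. With median-ratio scaling the median of all genes was -0.007, and with quantile normalization -0.002. No member and 0% of all genes passed the adjusted threshold, and 2 members had an unadjusted p under 0.05 and were lower (2.67%), against 0.829% of all genes lower and 0.802% higher. They were ATP5F1E, the epsilon subunit, at -0.29 ± 0.13, and COX6C at -0.29 ± 0.13. COX6C had 218, 234 and 237 FPKM in Gilteritinib and 153, 234 and 184 in Com, so the groups overlapped and Com replicate 1 was the lowest. COX7C followed at -0.19, while NDUFB5, ATP5F1D and NDUFS3 had the smallest p among members with higher values, at 0.20, 0.26 and 0.52. For 5 members (6.67%) all Com libraries lay below all Gilteritinib libraries, against 2.33% of all genes. They were NDUFB2, NDUFC1, SDHB, NDUFA4 and COX7B. With the replicate block 14 members were lower at an unadjusted p under 0.05, against 1.91% of all genes, and 0 passed the adjusted threshold. The median without Com replicate 1 was -0.03.

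The interaction asked whether mitoxantrone differed in effect with and without gilteritinib, and was the difference of Com from Gilteritinib less that of Mito-Lipo from DMSO. The gilteritinib doses differ, at 25 nM alone and 20 nM in Com, so the term is not one of equal doses. No member and 0% of all genes passed the adjusted threshold, and 2 members had an unadjusted p under 0.05 and a positive term (2.67%), against 1.43% of all genes positive and 1.48% negative. COX5A had a term of 0.45 ± 0.14, ATP5F1D of 0.73 ± 0.29 and CYC1 of 0.26 ± 0.12, each with an adjusted p of 0.9997. On the negative side NDUFC1, NDUFA12 and ATP5MK had the smallest p, at -0.24, -0.15 and -0.37. The median term was -0.02 over the members and -0.01 over all genes.

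The SE of a single member's difference between 2 conditions had a median of 0.11. Between the libraries of a condition, the SD of a single tested member had a median of 0.138. The median over the members varied less between these libraries, with an SD of 0.05 pooled over the conditions and 0.08 in Com.

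The libraries numbered 1 stood apart, which earlier results of these data had already shown. The calls below therefore describe a known difference and are no independent finding. Replicate 1 was set against replicates 2 and 3 within the conditions, and here many members passed an adjusted p under 0.05: 22 were lower in replicate 1 (29.3%), against 12.7% of all genes, and 8 were higher (10.7%), against 26.9%. With median-ratio scaling the split was 32 lower and 1 higher, against 19.8% and 17.2% of all genes, and with quantile normalization 19 and 7, against 19.7% and 15.9%. Without Com replicate 1, and likewise without Gilteritinib replicate 1, the total of called members was 18 in place of 30. The share of all genes called in these fits is not given, so a general loss of calls cannot be told apart. The median of all genes was 0.09 higher in replicate 1, and the median member 0.05 lower.

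ATP5MF, subunit f of the ATP synthase (chr7:99448475-99466331, minus strand), had the smallest p. It had 87.6, 120 and 122 FPKM in DMSO replicates 1, 2 and 3, 83.1, 120 and 129 in Mito-Lipo, 89.6, 150 and 156 in Gilteritinib, and 69.8, 142 and 117 in Com. Every replicate 1 lay below every other library, and the difference was -0.67 ± 0.07 with an adjusted p of 0.000172. COX4I1, the largest nuclear subunit of complex IV, had 51.2 to 57.0 FPKM in the 4 libraries numbered 1 and 63.6 to 73.7 in the other 8, a difference of -0.30 ± 0.04 with an adjusted p of 0.000877. COX8A fell by 0.32 on the log2 scale, from a mean of 320 FPKM in replicates 2 and 3 to 256 in replicate 1.

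By complex, the lower members were 8 of 18 tested in complex V, 5 of 11 in complex IV, 3 of 9 in complex III, 6 of 33 in complex I and 0 of 4 in complex II. In the membrane part of complex V all 9 members had the lower mean in replicate 1, and 6 passed: ATP5MF, ATP5MK, ATP5MG, ATP5MJ, ATP5MC2 and ATP5MC1. Within the conditions the median of these 9 was -0.15 in DMSO, -0.12 in Mito-Lipo, -0.22 in Gilteritinib and -0.36 in Com. In complex IV all 11 members were lower in Com replicate 1 than the mean of Com replicates 2 and 3, with a median of -0.39. The medians were -0.11, -0.11 and -0.09 in DMSO, Mito-Lipo and Gilteritinib.

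The 8 members that were higher in replicate 1 were NDUFV2, NDUFB5, NDUFA5, SDHD, UQCRFS1, ATP5PB, ATP5PO and ATP5F1C. NDUFA5 had 11.7 to 14.2 FPKM in the 4 libraries numbered 1 and 9.64 to 11.4 in the other 8, a difference of 0.26 ± 0.06 with an adjusted p of 0.00653. SDHD and UQCRFS1 were higher by 0.23 and 0.20. NDUFA5, SDHD and UQCRFS1 did not pass the threshold with median-ratio scaling, at 0.16, 0.13 and 0.10.

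The gene length behind each FPKM was found from the values themselves. Of the 26 members of up to 1000 nucleotides 9 were called lower and 1 higher, with a median of -0.15, and of the 28 members over 2000 nucleotides 6 were lower and 5 higher, with a median of -0.01. Of all 6282 genes of up to 1000 nucleotides 399 were lower and 1434 higher, with a median of 0.17, and of all 9732 genes over 2000 nucleotides 1590 were lower and 2935 higher, with a median of 0.06. Spearman's rho between length and difference was 0.20 over 75 members and -0.15 over 18557 genes, given as descriptions of genes within the same libraries. The part of length in the difference was not tested.

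Leaving out the 4 libraries numbered 1 changed some calls between conditions. They were already known from these data to stand apart, so this fit was not chosen blind. With replicates 2 and 3 only, 2 libraries a condition, 4 members passed the adjusted threshold as lower in Mito-Lipo than in DMSO (5.33%), against 3.32% of all genes: ATP5F1D at -0.80 ± 0.10, COX5A at -0.55 ± 0.05, CYC1 at -0.46 ± 0.04 and UQCRFS1 at -0.37 ± 0.04. In Gilteritinib minus Mito-Lipo 7 members passed as higher (9.33%), against 2.65% of all genes: ATP5MC1, COX5A, CYC1, NDUFB6, UQCRFS1, NDUFB2 and NDUFS8, from 0.29 down to 0.20. In Com minus Mito-Lipo 5 passed as higher (6.67%), against 2.62%: ATP5F1D, COX5A, CYC1, NDUFB6 and ATP5MC1, from 0.69 down to 0.22. The interaction was passed by 4 members with positive terms (5.33%), against 1.70%: ATP5F1D, COX5A, CYC1 and UQCRFS1, from 1.18 down to 0.34. The 3 comparisons and the interaction share the 2 Mito-Lipo libraries, whose ATP5F1D was 41.9 and 36.5 FPKM against 69.2 in the library left out. In the other 3 comparisons 0 members passed. Of all 18574 genes, 6 were higher and 108 lower in Gilteritinib minus DMSO. The numbers were 2 and 7 in Com minus DMSO and 12 and 2 in Com minus Gilteritinib.

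The messages encoded in mitochondrial DNA varied more widely between libraries. Their 13 genes, the partners of the nuclear subunits in complexes I, III, IV and V, summed to 5813 FPKM in Gilteritinib replicate 1 and 6267 in Com replicate 1, and to between 11133 and 15821 in the other 10 libraries. The nuclear members summed to 5270 and 4620 FPKM in these 2 libraries, within or just under the 4728 to 5674 of the others. The ratio of the mitochondrial to the nuclear sum was therefore 1.103 and 1.36 in these 2 libraries and 2.23 to 2.79 in the other 10. In DMSO and Mito-Lipo the library numbered 1 also had the lowest ratio of its condition, at 2.23 against 2.30 and 2.79 and at 2.38 against 2.44 and 2.47. The nuclear sum, too, was lowest in replicate 1 of each condition. It was 4983 against 5383 and 5167 FPKM in DMSO, and 4728 against 4766 and 5058 in Mito-Lipo. In Gilteritinib it was 5270 against 5463 and 5674, and in Com 4620 against 5566.5 and 5138.

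Genes around the chain were summarised in the same way. In Mito-Lipo minus DMSO 39 of 51 tested assembly factors were lower, with a median of -0.08, as were 63 of 72 mitochondrial ribosomal proteins, with a median of -0.10, and 12 of 17 genes of the citric acid cycle and pyruvate dehydrogenase, with a median of -0.06. Cytosolic ribosomal proteins had a median of 0.02, with 29 of 79 lower. In Gilteritinib minus Mito-Lipo the medians were 0.04, 0.14, 0.08 and 0.04 in the same order, with 36 of 51, 66 of 72, 14 of 17 and 58 of 79 higher. In Gilteritinib minus DMSO they were -0.01, 0.045, 0.01 and 0.07, with 22 of 51, 44 of 72, 11 of 17 and 67 of 79 higher. The cytosolic ribosomal proteins there had the members' median of 0.07. The 13 mitochondrially encoded messages were all lower there, with a median of -0.264, and their sum was lowest in Gilteritinib replicate 1. No gene of these lists passed the adjusted threshold in any of these comparisons. Of the 11 tested regulators 0 had an unadjusted p under 0.05 in Mito-Lipo minus DMSO, and of the 11 genes of mitochondrial DNA transcription and upkeep 2 did, both lower: TFAM, which packs the mitochondrial genome, at -0.23, and POLRMT, its RNA polymerase, at -0.34, beside the 2.94% of all genes that were lower at this p. NRF1 had 11.0 FPKM on average, GABPA 13.1 and YY1 29.6. PPARGC1A, the coactivator PGC-1 alpha, did not exceed 0.0138 FPKM, whereas its relatives PPARGC1B and PPRC1 had 12.2 and 21.4.

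Among isoforms and partners that the rule left out, the tissue-restricted forms were low or without a row. COX4I2 did not exceed 0.170 FPKM, against 63.7 for COX4I1, and COX6B2 had 0.217, against 201 for COX6B1. COX7A1, the heart and muscle form, had 4.67, against 113 for COX7A2. CYCS, cytochrome c, had 55.6 FPKM. NDUFAB1, the acyl carrier protein in complex I, had 72.2 FPKM in DMSO and 51.2 in Mito-Lipo, a difference of -0.51 with an unadjusted p of 0.0146.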

How the data were processed

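RNA from MV4-11 cells was amplified and made into libraries by a transposase method that does not keep strand, and 12 libraries, 3 for each of 4 conditions, were read here from 1 table. The authors deposited FPKM values to 4 decimals, from a sequencing company. The submitters' processing notes list Bowtie 0.12.9, Cufflinks 2.1.1, HTSeq and DESeq2 without roles and name mm10 as the build, whereas the gene identifiers of the table are human; 40169 of its 43876 rows were found in GENCODE release 29. All 12 columns were used.

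Members were matched by symbol, and pseudogenes were left out. The members, the gene lists and the contrast of replicate 1 with replicates 2 and 3 were chosen with earlier results of these data known. Values were tested as log2(FPKM + 1) with limma 3.58.1 in R 4.3.3 (a trend of variance with level, and a mean for each condition in a joint fit of the 12 libraries) on the 18574 genes with at least 1 FPKM in at least 3 libraries, and p-values were adjusted by Benjamini-Hochberg within each comparison, 2-sided. Fold changes on this scale understate the change of low genes. The interaction and the contrast of replicate 1 with replicates 2 and 3 came from fits of the same kind. The study's methods name t-tests for comparing 2 groups, and its account of the transcriptome names a false discovery rate threshold without saying which test gave it; limma was used here. The script was tested on simulated data with known changes. These were larger than the members' median differences, and the noise held no shift shared by the libraries numbered 1. The simulation therefore does not show whether changes of the members' size would be called.

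Where the values are whole multiples of 1 fragment, the depth and the gene length follow from them: 18557 of the 18574 genes and 78 members had a length at which all 12 values were whole within 0.01 fragments. The depths so found were 31725014 to 41330653 fragments. They limit precision through counting error only.

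Libraries with the same replicate number deviated together. Over all genes, all 18 pairs of such libraries had a correlation of deviations over 0.1, from 0.165 to 0.657. Over the members alone it ran from -0.417 to 0.69, with 13 of 18 pairs over 0.1. Correlations between libraries of different numbers are not given. Where the libraries numbered 1 stand apart, the others deviate together from their condition means, whether or not they are paired. The values therefore cannot decide whether the other numbers pair the libraries. The fit blocked on replicate number is given as an alternative, beside the counts that it moves by over 1.5 times.

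Genes named are the highest and lowest member of each complex, the catalytic and cofactor-bearing members, up to 3 members in each direction with the smallest p per comparison, and the members around the filter on low values. Values of 1 such member and of 1 marker are not reported here. Others named in lists of calls or of non-overlapping members were chosen after their values were seen. Alternatives were another pseudocount, 2 other filters, median-ratio scaling, quantile normalization, no trend, the block, only the 6 libraries compared, replicates 2 and 3 only, each library left out in turn and, chosen after seeing the data, voom with and without the block and protein-coding genes only. The fit on replicates 2 and 3 only was set when replicate 1 was already known from these data to stand apart.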

Additional observations from a re-analysis of the deposited data

How the results depend on the processing

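Of 374 recomputed counts and medians over the members 359 stayed within 1.5 times the count or within the spread between replicates, and 15 did not. The 359 include counts of 0 in both fits, and a median or a split could change within these bounds. With replicates 2 and 3 only, the median in Com minus DMSO was 0.013 in place of -0.033. For replicate 1 against the others, median-ratio scaling gave 1 member higher and 32 lower in place of 8 and 22. With replicates 2 and 3 only, the members past the adjusted threshold numbered 4 in Mito-Lipo minus DMSO, 5 in Com minus Mito-Lipo, 7 in Gilteritinib minus Mito-Lipo and 4 in the interaction, in place of 0 each, and the median interaction was 0.032. Median-ratio scaling gave a median of 0.21 in Gilteritinib minus Mito-Lipo and of -0.121 for replicate 1 minus replicates 2 and 3. With the replicate block 0 members passed in every comparison of conditions, and with voom and the block 1 member did, NDUFB7 in Gilteritinib minus Mito-Lipo, with a difference of 0.38 and an adjusted p of 0.0364. The causes were not tested. Leaving out 1 library at a time, 0 members passed in any comparison of conditions. The members called between replicate 1 and the others numbered 18 to 31, with 18 without Com replicate 1 and 18 without Gilteritinib replicate 1. All-gene shares for these fits are not given. The medians then ranged from -0.065 to 0.032 in Com minus DMSO, from -0.122 to -0.029 in Com minus Gilteritinib, from 0.006 to 0.113 in Com minus Mito-Lipo, from 0.118 to 0.168 in Gilteritinib minus Mito-Lipo, from 0.051 to 0.084 in Gilteritinib minus DMSO, from -0.1 to -0.055 in Mito-Lipo minus DMSO and from -0.039 to 0.036 in the interaction. In Com minus DMSO, Com minus Gilteritinib and the interaction the far value came without Com replicate 1.

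Among 1117 recomputed differences of 30 named genes 1102 kept their direction and their side of the threshold, 10 passed it newly, 9 of them with replicates 2 and 3 only, and 4 no longer passed it, all for replicate 1 against the others. NDUFS3 turned in Com minus Gilteritinib without Com replicate 2, and ranged from -0.071 to 1.01 over the libraries left out. Depth limits the members of low level most: NDUFA3 rests on 8 to 37 fragments a library and ATP5MGL on 12 to 43.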

Other observations

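Values outside the comparisons concern genes near the members. Of 83 cytosolic ribosomal protein genes 79 were tested, and 38 were lower and 6 higher in replicate 1 than in replicates 2 and 3 at an adjusted p under 0.05, with a median of -0.15, beside 12.7% of all genes lower and 26.9% higher. Of the 51 tested assembly factors 6 were lower and 19 higher, with a median of 0.06, and of the 72 mitochondrial ribosomal proteins 13 were lower and 8 higher, with a median of -0.04. All 13 mitochondrially encoded messages had the lower mean in replicate 1, and 10 passed the test, with a median of -0.73.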
